A study of Mus musculus with 1 sample.

Results

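The 10 genes described here are the Notch ligands *Jag1*, *Jag2* and *Dll4*, the receptors *Notch1*, *Notch2* and *Notch3*, and the target genes *Hes1*, *Hey1*, *Hey2* and *Heyl*. They were taken by symbol from the 22631 features of a single-cell RNA-seq library of control fetal mouse testes, and each of the 10 matched 1 feature. The study asked what Sertoli cells become when they lose the nuclear receptor NR5A1, and the control library shows where the Notch genes are read in a testis that has not lost it. The library came from 1 pooled suspension, for which the label counts 12 controls and the study's text 12 testes, so there was 1 sample and no replicate. The mutant library was not analysed here.

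The label gives the genotype of the library as WT and the stage as E 14.5, whereas the design text names E13.5 and E14.5. The methods describe the controls as fetuses with both conditional *Nr5a1* alleles (L2/L2) and without the Cre transgene, on a mixed C57BL/6 and 129/SvPass background. Whole testes were dissociated with trypsin, without a sort, and messenger RNA was captured in droplets at its 3′ end. A unique molecular index (UMI) tags each molecule, so that a molecule counts as 1 whatever the length of its gene.

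Notch signalling passes between cells that touch. A ligand of the Jagged or Delta-like family on a sending cell binds a Notch receptor on its neighbour, the receptor is cut by an ADAM protease and then by gamma-secretase, and its freed inner part joins the DNA-binding protein RBPJ. *Hes1*, *Hey1*, *Hey2* and *Heyl* encode repressors of transcription that this complex is known to switch on, although *Hes1* also responds to other signals. In the fetal testis, Notch signalling is known for holding interstitial progenitors back from becoming Leydig cells, and in vessels for arterial and mural cell identity.

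*Hey2* was the only target gene among the 7 members whose promoter windows could be searched for GTGGGAA, the letters that RBPJ is known to bind. The other windows were those of ligands and receptors, so the targets could not be compared. The window of *Hey2* held the letters. The window runs from 250 bases before to 50 bases after the start of the gene, and is given from RefSeq on GRCm38.p6, at chr10:30842734-30843033 on the minus strand. Capitals mark the letters GTGGGAA or their complement, which begin, as printed, 207 bases (complement) and 4 bases (same strand) before the start.

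Hey2: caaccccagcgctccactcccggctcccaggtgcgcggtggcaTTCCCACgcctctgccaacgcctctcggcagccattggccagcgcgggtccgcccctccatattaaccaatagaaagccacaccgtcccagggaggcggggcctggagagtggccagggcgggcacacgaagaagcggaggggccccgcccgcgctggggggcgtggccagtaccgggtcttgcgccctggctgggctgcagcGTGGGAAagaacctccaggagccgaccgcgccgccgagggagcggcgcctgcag

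The letters were searched on both strands in the windows of 7 members, and the windows of *Jag1*, *Jag2*, *Dll4*, *Notch1*, *Notch2* and *Notch3* held no match. Of all 32851 windows of the same length, 2097 (6.38%) held at least 1 match. Among the other Notch pathway genes, windows of *Lfng*, *Psen2*, *Aph1a*, *Spen*, *Hes5* and *Hes7* held a match, and the number of these genes with a window was not counted. A match is a description of the letters and not a measured site of binding. *Hes1*, *Hey1* and *Heyl* were not searched.

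The filters kept 3809 cells, with a median of 12038 UMIs (2266 to 53657) and a median of 3580 genes. The kept cells fell into 16 clusters. The 10 members and 40 other Notch pathway genes were left out of the genes used for clustering, so they did not shape the clusters. Named classes of at least 30 cells were Sertoli-like (849 cells), interstitial-like (1362), peritubular myoid-like (526), Leydig-like (310), germ-like (248), coelomic epithelium-like (153), perivascular-like (106), endothelial-like (42) and immune-like (33). Rete testis-like (17) and erythroid-like (16) cells were too few to rank, and 147 cells in clusters 10 and 11 were left without a name by a rule chosen after the clusters were seen. Levels are given as UMIs of a gene per 1000000 UMIs of the class (CPM), followed in parentheses by the exact Poisson 95% interval. These intervals hold counting error alone. Cells from a single library are no replicates, and the comparisons were left untested. In summed levels, fewer cells that hold a transcript and fewer molecules per cell cannot be told apart.

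Interstitial-like and Leydig-like cells, on which most of the results turn, each held several clusters. Interstitial-like cells comprised cluster 1 (849 cells, led by *Colec11*, *Adamts5*, *Osr2* and *Inhba*), cluster 3 (310 cells, led by *Hbb-y*, *Ntng1* and *Hba-x*, the first and last of them globin genes) and cluster 5 (203 cells, led by histone genes, 100% of them called in S or G2/M phase). Leydig-like cells comprised cluster 6 (183 cells, led by *Nppc*, *Vsnl1* and *Nts*, 33.9% in S or G2/M phase) and cluster 8 (127 cells, led by *Clps*, *Cyp11a1*, *C4b*, *Cyp17a1* and *Star*, 1.57% in S or G2/M phase). *Cyp11a1*, which starts steroid synthesis, was at 2500 CPM in cluster 6 and 10900 CPM in cluster 8, against 16.7 CPM in cluster 1. *Tcf21*, a marker of interstitial cells, was at 512 CPM in cluster 1, 58.8 CPM in cluster 6 and 19.3 CPM in cluster 8. Cluster 6 thus lay between cluster 1 and cluster 8 on both markers.

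Across the library, each of the 10 members was seen in at least 10 cells. *Hes1* was read in 49.9% of kept cells and *Dll4* in 0.761%, with 4200 and 50 UMIs in all. Of the 10 members, 8 had their highest level in endothelial-like or perivascular-like cells, whereas *Notch2* and *Hes1* were highest in interstitial-like cells. The heat map of levels by class shows this split. The share of all features that peak in endothelial-like or perivascular-like cells was not counted. These classes held 716213 and 1278024 UMIs, against 13383278 in interstitial-like cells, so their levels carry more counting error. For *Jag1* the perivascular-like and Leydig-like intervals overlapped, and for *Hes1* the interstitial-like and perivascular-like ones.

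**Figure D1:**
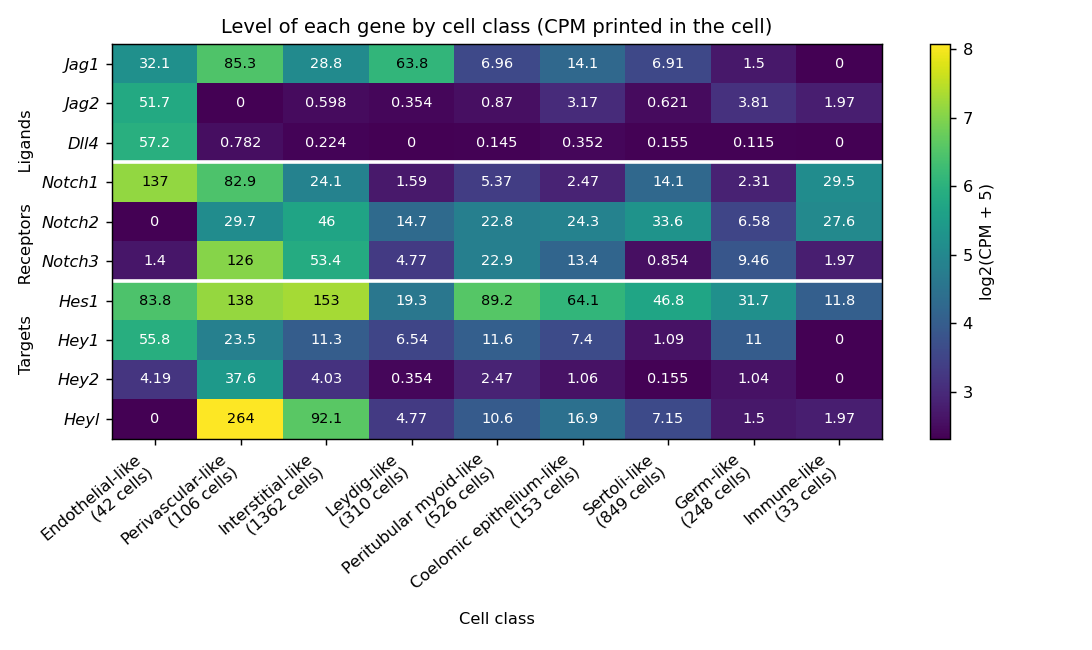
Level of each of the 10 genes (rows, grouped as ligands, receptors and targets) in each named class of at least 30 cells (columns). The number in a cell is the CPM and the colour is log2(CPM + 5). *Dll4* and *Jag2* are bright in endothelial-like cells alone, *Heyl* reaches 264 CPM in perivascular-like cells, and Leydig-like cells are bright for *Jag1* and dark for the receptors.

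Among the ligands, *Jag1* (Jagged 1, on chromosome 2 at 137081456-137116644, minus strand, GRCm38) was the one read across the stroma. Its level was 85.3 CPM (70.0-103) in perivascular-like, 63.8 CPM (57.4-70.8) in Leydig-like, 32.1 CPM (20.4-48.2) in endothelial-like and 28.8 CPM (26.0-31.9) in interstitial-like cells. Coelomic epithelium-like cells held 14.1 CPM (10.1-19.2), peritubular myoid-like cells 6.96 CPM, Sertoli-like cells 6.91 CPM and germ-like cells 1.5 CPM, and no UMI was read in immune-like cells. The intervals of perivascular-like and Leydig-like cells overlapped, as did those of endothelial-like and interstitial-like cells, while the step between these pairs exceeded counting error. Leydig-like cells, 8.14% of kept cells, held 33.2% of all *Jag1* UMIs, and interstitial-like cells 35.5%.

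*Dll4* (Delta-like 4, chromosome 2, 119325784-119335962, plus strand), a ligand known from arterial and sprouting endothelium, was almost entirely endothelial among kept cells. Endothelial-like cells held 41 of its 50 UMIs in kept cells (82.0%) at 57.2 CPM (41.1-77.7). No other class exceeded 0.782 CPM, which in perivascular-like cells was 1 UMI. The barcodes removed as doublets held 21 further *Dll4* UMIs (3.33 CPM) and the removed outlier cells 22 (2.09 CPM), and these were given no class. *Dll4* was read in 47.6% of endothelial-like cells (median depth 12768.5 UMIs), against 0.22% of interstitial-like cells (median depth 9247 UMIs), which are not known to make it.

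*Jag2* (Jagged 2, chromosome 12, 112907819-112929776, minus strand) followed the same order at the top, with 51.7 CPM (36.4-71.2) in endothelial-like cells. Germ-like cells came next at 3.81 CPM (2.62-5.35), and because they were deep (median 36028 UMIs per cell) they held 31.4% of all *Jag2* UMIs. Coelomic epithelium-like cells were at 3.17 CPM (1.45-6.02), an interval that overlapped that of germ-like cells. Sertoli-like, interstitial-like and Leydig-like cells were each under 1 CPM, and no *Jag2* UMI was read in perivascular-like cells.

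The receptors divided the classes differently. *Notch1* (chromosome 2, 26457903-26516663, minus strand), the receptor of arterial endothelium among many other cells, was highest in endothelial-like cells at 137 CPM (111-167) and next in perivascular-like cells at 82.9 CPM (67.9-100). Immune-like cells (29.5 CPM, 16.5-48.7) and interstitial-like cells (24.1 CPM, 21.6-26.9) had overlapping intervals, and Sertoli-like cells followed at 14.1 CPM (12.2-16.3). Leydig-like cells had 1.59 CPM (0.728-3.02), germ-like cells 2.31 CPM, coelomic epithelium-like cells 2.47 CPM and peritubular myoid-like cells 5.37 CPM.

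*Notch2* (chromosome 3, 98013527-98150361, plus strand) was read in every named class of at least 30 cells other than the endothelial one. It was highest in interstitial-like cells at 46.0 CPM (42.4-49.7), followed by Sertoli-like cells at 33.6 CPM (30.5-36.9). Perivascular-like, immune-like, coelomic epithelium-like and peritubular myoid-like cells lay between 29.7 and 22.8 CPM, and each interval overlapped the next. Leydig-like cells were lower at 14.7 CPM (11.7-18.2) and germ-like cells at 6.58 CPM (4.98-8.52). Endothelial-like cells held no *Notch2* UMI among 716213 UMIs, in 0 of 42 cells. By a floor of 3 counts this allows up to 7.14% of cells with a UMI (exact binomial upper limit 8.41%), and it does not limit the share of cells that express the gene.

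*Notch3* (chromosome 17, 32120820-32166852, minus strand), a receptor known from the mural cells of vessels, was highest in perivascular-like cells at 126 CPM (107-147). Interstitial-like cells were at 53.4 CPM (49.5-57.4) and peritubular myoid-like cells at 22.9 CPM (19.5-26.8), each step beyond counting error. Sertoli-like cells had 0.854 CPM (0.427-1.53), or 11 UMIs in 849 cells. Sertoli-like cells therefore held *Notch2* and *Notch1* but next to no *Notch3*, and endothelial-like cells held *Notch1* with 1 UMI of *Notch3* and none of *Notch2*.

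Of the targets, *Hes1* (chromosome 16, 30064384-30067796, plus strand) was read in every named class of at least 30 cells. Its level was 153 CPM (147-160) in interstitial-like and 138 CPM (119-160) in perivascular-like cells, whose intervals overlapped. Peritubular myoid-like (89.2 CPM), endothelial-like (83.8 CPM) and coelomic epithelium-like cells (64.1 CPM) formed a middle group, each interval overlapping the next. Sertoli-like cells had 46.8 CPM (43.1-50.6), germ-like cells 31.7 CPM (28.1-35.7), Leydig-like cells 19.3 CPM (15.8-23.3) and immune-like cells 11.8 CPM (4.33-25.7).

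*Heyl* (chromosome 4, 123233556-123249875, plus strand) was concentrated in perivascular-like and interstitial-like cells, and was read at lower levels in every other ranked class except the endothelial one. Perivascular-like cells had 264 CPM (237-294) and interstitial-like cells 92.1 CPM (87.1-97.4), and these classes together held most of its 1844 UMIs (18.3% and 66.9%). Coelomic epithelium-like cells were next at 16.9 CPM (12.5-22.4), followed by peritubular myoid-like cells at 10.6 CPM (8.3-13.3) and Sertoli-like cells at 7.15 CPM (5.76-8.76). Leydig-like cells had 4.77 CPM (3.15-6.95), and endothelial-like cells had no UMI.

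*Hey1* (chromosome 3, 8663359-8667256, minus strand) was highest in endothelial-like cells at 55.8 CPM (39.9-76.1), followed by perivascular-like cells at 23.5 CPM (15.8-33.5). Interstitial-like, peritubular myoid-like and germ-like cells had 11.3, 11.6 and 11.0 CPM, with overlapping intervals, and Sertoli-like cells 1.09 CPM (0.594-1.82). *Hey2* (chromosome 10, 30832359-30842801, minus strand), whose promoter window is printed above, was highest in perivascular-like cells, with 37.6 CPM (27.7-49.8). Its next highest levels, 4.19 CPM in endothelial-like and 4.03 CPM in interstitial-like cells, did not differ beyond counting error. Interstitial-like cells, the larger class, held 54 *Hey2* UMIs (37.8% of the total) and perivascular-like cells 48 (33.6%). Of these related targets, *Hey2* and *Heyl* were thus highest in perivascular-like cells and *Hey1* in endothelial-like cells.

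Summed by role, the members set Leydig-like cells apart. Ligand UMIs were at 64.2 CPM in Leydig-like and 29.7 CPM in interstitial-like cells. Nearly all of them were *Jag1*, with 361 of 363 UMIs in Leydig-like and 386 of 397 in interstitial-like cells. Receptor UMIs were at 21.0 CPM and 123 CPM, and target UMIs at 30.9 CPM and 261 CPM. The target sum was thus 8.43 times higher in interstitial-like cells, and 4.8 to 21.1 times under the alternatives, the ends of that range being clusters 6 and 8 taken alone. Of the 9 classes, Leydig-like cells alone had a ligand sum above both the receptor sum and the target sum. Within that class, the ligand and target sums were level in cluster 6, at 54.4 CPM (45.6-64.3) each. In cluster 8 they were 72.0 and 12.4 CPM. The ligand sum thus exceeded the target sum in cluster 8 alone. In endothelial-like cells the sums of 141, 138 and 144 CPM had overlapping intervals. Perivascular-like cells were high in all roles, with 86.1 CPM of ligands, 239 CPM of receptors and 464 CPM of targets. Sertoli-like cells had 7.69, 48.5 and 55.1 CPM and germ-like cells 5.42, 18.3 and 45.2 CPM.

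**Figure D2:**
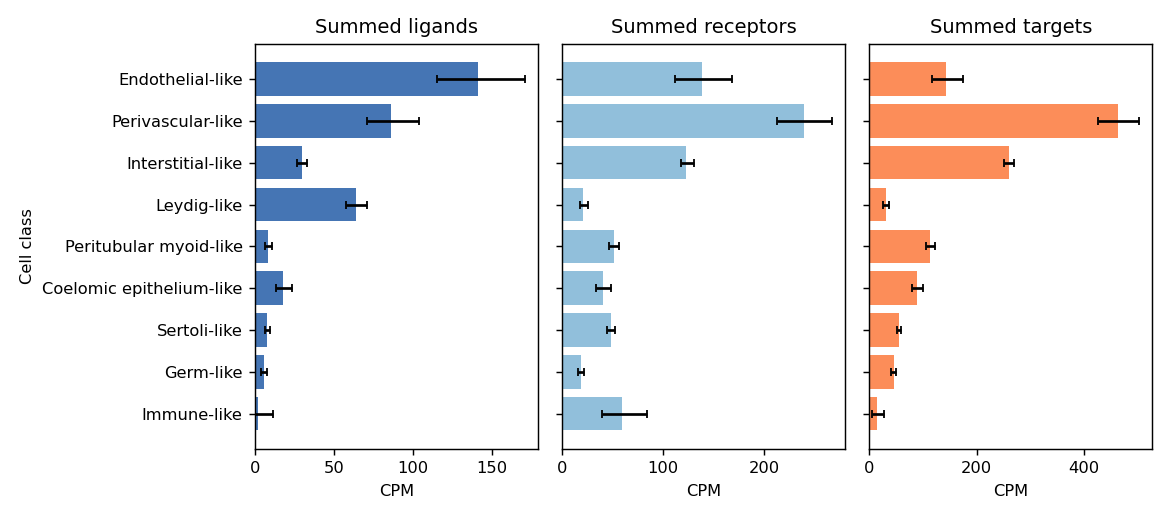
Summed CPM of the 3 ligands, the 3 receptors and the 4 targets (bars, each axis from 0) in each named class of at least 30 cells, with exact Poisson 95% intervals. Perivascular-like cells have the longest receptor and target bars (239 and 464 CPM), and Leydig-like cells pair a ligand bar of 64.2 CPM with receptor and target bars of 21.0 and 30.9 CPM.

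The same contrast held per cell at equal depth. After each cell was thinned to 5000 UMIs (cells with fewer were left out), 25.1% of 307 Leydig-like cells had a ligand UMI, 12.1% a receptor UMI and 13.7% a target UMI. Of 1291 interstitial-like cells, 12.8% had a ligand UMI, 42.4% a receptor UMI and 66.2% a target UMI. Within Leydig-like cells, the shares of cluster 6 were 24.2% (18.1-31.1), 17.6% (12.3-23.9) and 18.7% (13.3-25.1), with overlapping intervals. In cluster 8 they were 26.4% (18.9-35.0), 4.0% (1.31-9.09) and 6.4% (2.8-12.2). A receptor and a target were read together in 30.1% (27.6-32.6) of interstitial-like cells, 60% (50-69.4) of perivascular-like cells and 3.26% (1.57-5.91) of Leydig-like cells.

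Leydig cells and interstitial progenitors were then compared gene by gene. A member was called higher or lower when log2 of the ratio, with 5 CPM added to each level, was at least 1 in size. By this rule a gene under 5 CPM in both classes of a comparison cannot be called, whatever its ratio. Of the 10 members, *Jag1* was higher in Leydig-like cells, *Notch1*, *Notch2*, *Notch3*, *Hes1* and *Heyl* were lower, and 4 were neither. Of these 4, *Hey2*, *Jag2* and *Dll4* were under 5 CPM in both classes, so no call was possible for them. Among the 15106 features seen in at least 10 kept cells, 5.4% were higher and 7.45% lower by the same rule. The median log2 difference was -1.06 over the members and -0.07 over all features.

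*Jag1* was 2.21-fold higher (1.91-2.56) in Leydig-like cells, an interval that reaches below the fold used for the call. Under the alternatives its log2 difference lay between 0.81 and 1.47, and the call was lost without the outlier filter, with log-normalized counts before clustering, after thinning to 5000 UMIs, with cluster 6 alone and without interstitial-like cluster 3. *Heyl* was lower by a factor of 19.3 (13.2-29.4), *Notch1* by 15.2 (7.89-33.5), *Notch3* by 11.2 (7.61-17.1), *Hes1* by 7.95 (6.56-9.74) and *Notch2* by 3.13 (2.49-3.99). *Hey1* was at 6.54 CPM in Leydig-like and 11.3 CPM in interstitial-like cells, *Hey2* at 0.354 and 4.03 CPM, *Jag2* at 0.354 and 0.598 CPM, and *Dll4* at 0 and 0.224 CPM. Without the added CPM, *Hey2* was lower by a factor of 11.4 (3.01-96.6), from 2 and 54 UMIs. Over the 9 interstitial markers, the level in Leydig-like cells was a median of 19.3% of that in interstitial-like cells, with a range from 5.88% to 139%. *Hes1*, *Hey1*, *Hey2* and *Heyl* stood at 12.6%, 58.0%, 8.77% and 5.18%, and *Notch1*, *Notch2* and *Notch3* at 6.59%, 31.9% and 8.95%. *Hey1* and *Notch2* thus lay above the median of the markers, and *Jag1* stood above 100%. The part of carried-over interstitial RNA in the low levels of Leydig-like cells was not tested.

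The Leydig-like clusters differed in the targets *Hes1* and *Heyl* and in the receptors, and much less in the ligand *Jag1*. *Hes1* was at 38.0 CPM (30.7-46.4) in cluster 6 and 4.44 CPM (2.43-7.45) in cluster 8. *Heyl* was at 8.80 and 1.59 CPM, and *Notch3* at 9.99 and 0.634 CPM. These 3 members were lower in cluster 8 than in cluster 6 by the 2-fold rule, against 6.54% of all features, and no member was higher (3.11% of all features). *Notch2* was at 21.2 CPM (15.9-27.7) in cluster 6 and 9.51 CPM (6.42-13.6) in cluster 8, and *Notch1* had 8 and 1 UMIs. The receptor sum was 34.4 CPM (27.5-42.5) in cluster 6 and 10.5 CPM (7.2-14.7) in cluster 8. *Jag1* was at 54.4 CPM (45.6-64.3) in cluster 6 and 71.3 CPM (62.3-81.3) in cluster 8. The ratio of cluster 8 to cluster 6 was 1.31 (1.06-1.64), a step beyond counting error but not past 2-fold. *Hey1* was at 6.80 and 6.34 CPM in clusters 6 and 8, and *Hey2* had 2 and 0 UMIs. Cluster 8 also carried 10520 CPM of globin transcripts, against 181.5 CPM in cluster 6, and the part of that in these levels was not tested.

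Set against interstitial-like cells, cluster 6 had 4 members lower (*Notch1*, *Notch3*, *Hes1* and *Heyl*, with 4.06% of all features lower) and none higher (3.1%). Cluster 8 had 5 lower (*Notch2* in addition, with 12.9% of all features lower) and *Jag1* higher (6.76%). In cluster 8, 14 UMIs of *Hes1* were read in 127 cells, a level lower than in interstitial-like cells by a factor of 34.5 (20.5-63.3).

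**Figure D3:**
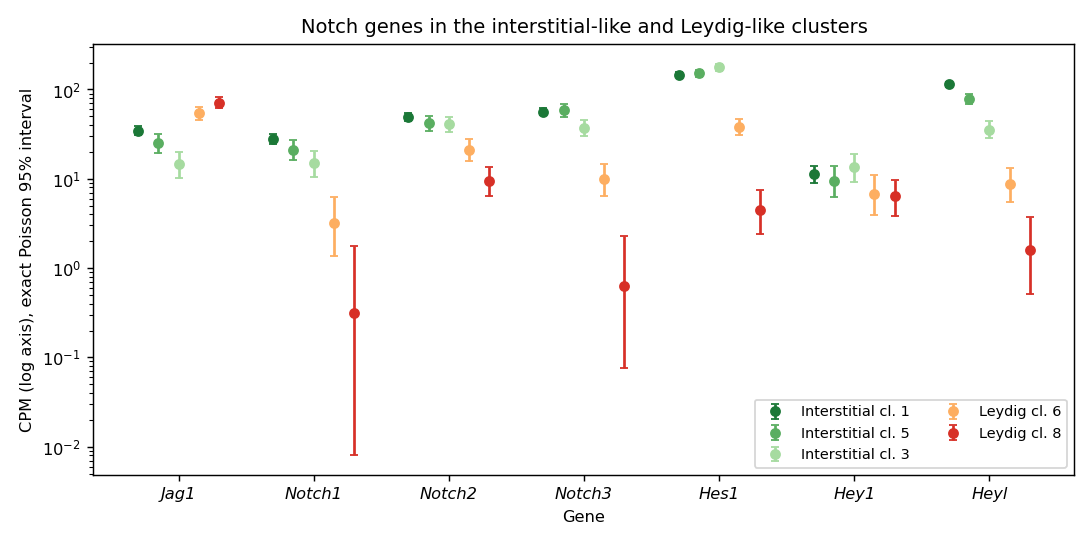
Level (CPM, log axis) of 7 members in interstitial-like clusters 1, 5 and 3 and Leydig-like clusters 6 and 8, with exact Poisson 95% intervals. From green to orange to red, *Hes1* goes from 146 to 38.0 to 4.44 CPM and *Heyl* from 114 to 8.80 to 1.59 CPM between clusters 1, 6 and 8, while *Jag1* goes from 34.6 to 54.4 to 71.3 CPM.

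Within cluster 6, *Hes1* was read more often in cells without a *Cyp11a1* UMI than with one, a comparison chosen after the levels were seen. At 5000 UMIs per cell, *Hes1* was read in 4 of 114 cells with a *Cyp11a1* UMI (3.51%, exact binomial interval 0.964-8.74) and in 19 of 68 cells without one (27.9%, 17.7-40.1). The share without *Cyp11a1* lay below the 46.4% (43.6-49.2) of interstitial-like cells. *Notch2* was read in 7.02% (3.08-13.4) and 17.6% (9.47-28.8) of the same cells, with overlapping intervals. Split by *Cyp17a1*, a later enzyme of steroid synthesis, over both clusters, *Hes1* was read in 9 of 241 cells with and 16 of 66 cells without a UMI. *Cyp17a1* was at 4090 CPM in cluster 6 and 15100 CPM in cluster 8. This split therefore mixes the difference between the clusters with any difference within cluster 6. In cluster 8 each of 125 cells had a *Cyp11a1* UMI, and *Hes1* was read in 2 of them. *Cyp11a1* was itself read in 79 of 1291 interstitial-like cells, of which 38.0% had a *Hes1* UMI, so single *Cyp11a1* UMIs do not mark Leydig cells alone.

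Among the interstitial-like clusters, *Heyl* and *Jag1* were the members past 2-fold with 5 CPM added. For cluster 3 against cluster 1, the ratio of *Jag1* was 0.424 (0.292-0.598). Its interval overlapped that of *Notch1* (0.538, 0.371-0.762). *Hey2*, with 5 UMIs in cluster 3, had a ratio of 0.383 (0.118-0.966). *Heyl* was at 114 CPM (107-122) in cluster 1, 78.7 CPM (68.5-89.9) in the dividing cluster 5 and 35.6 CPM (28.6-43.8) in cluster 3. *Jag1* was at 34.6, 24.9 and 14.6 CPM in the same order. Both were lower by the 2-fold rule in cluster 3 than in cluster 1, where 0.569% of all features were lower and 0.569% higher. *Jag1* was close to the limit, at -1.01 on the log2 scale, and *Heyl* was at -1.55. Globin transcripts were at 1625 CPM in cluster 3 and 788.1 CPM in cluster 1, and their part in these levels was not tested.

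*Hes1* went the other way, from 146 CPM (138-155) in cluster 1 to 177 CPM (161-195) in cluster 3, a ratio of 1.21 (1.08-1.35). *Notch1* was at 27.9 CPM in cluster 1 and 15 CPM in cluster 3, *Notch3* at 56.6 and 37.2 CPM, and *Notch2* at 49.0 and 40.8 CPM. No member of cluster 5 was past 2-fold against cluster 1 (1.85% of all features higher and 0.265% lower). The unnamed cluster 10 (86 cells, with *Kcnk2* and *Gdf10* among its leading genes) had 95.4 CPM (75.5-119) of *Hes1* and 20.5 CPM (12.0-32.9) of *Heyl*, with *Notch1* at 32.6 CPM and *Notch2* at 39.8 CPM.

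Perivascular-like cells, which surround small vessels, stood above interstitial-like cells for *Jag1*, *Notch1*, *Notch3*, *Hey2* and *Heyl*, and no member was lower. By the 2-fold rule, 1.82% of all features were higher and 1.71% lower. *Hey2* was 9.31-fold higher (6.18-14.0), *Notch1* 3.44-fold (2.73-4.29), *Jag1* 2.96-fold (2.37-3.67), *Heyl* 2.87-fold (2.54-3.24) and *Notch3* 2.36-fold (1.98-2.81). *Hey1* was at 23.5 and 11.3 CPM, a ratio of 2.08 (1.36-3.09) that did not pass with 5 CPM added. *Notch2* was at 29.7 and 46.0 CPM and *Hes1* at 138 and 153 CPM.

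The perivascular name was checked against the marker lists of other cell types. All 8 perivascular markers were read in these cells at a summed 1359 CPM, against 362.8 CPM in interstitial-like and 220.9 CPM in peritubular myoid-like cells, with *Rgs5* at 432 CPM and *Pdgfrb* at 339 CPM. All 7 peritubular myoid markers were read there as well, at 2537 CPM against 3100 CPM in the myoid class itself, and all 9 interstitial markers at 1769 CPM against 3375 CPM in interstitial-like cells. Both sums exceeded that of the perivascular list. Of the 9 endothelial markers 8 were read, at a summed 85.29 CPM (47.22 CPM in interstitial-like cells), led by *Emcn* at 40.7 CPM and then *Esam*, while *Pecam1* and *Cdh5* had 0 and 1 UMI. The part of these cell types in the levels of *Notch1* and the other members was not tested. Their globin transcripts were at 4084 CPM, whose part in the levels was not tested.

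Endothelial-like cells, the lining of the vessels, had *Jag2*, *Dll4*, *Notch1* and *Hey1* higher than interstitial-like cells (7.02% of all features higher), and *Notch2*, *Notch3* and *Heyl* lower (10.1%). *Jag2* was 86.4-fold higher (39.6-215), *Notch1* 5.67-fold (4.48-7.13) and *Hey1* 4.95-fold (3.40-7.05). *Dll4* had 41 UMIs against 3, a ratio of 255 (81.5-1290). *Notch2* and *Heyl* had no UMI. Against a floor of 3 counts over the class, *Notch2* was at least 11.0-fold and *Heyl* at least 22.0-fold lower, and the exact 95% intervals of these ratios, as used for the other folds, begin at 8.9 and 17.9. *Notch3* had 1 UMI. *Jag1* (ratio 1.11, 0.697-1.70), *Hes1* (0.546, 0.415-0.706) and *Hey2* were neither. *Cdh5* was at 880 CPM and *Pecam1* at 459 CPM in these cells, and 6 of the 8 perivascular markers, *Rgs5* and *Pdgfrb* among them, had no UMI. *Mcam*, a perivascular marker also known from endothelium, was at 113 CPM (98.6 CPM in perivascular-like cells) and *Abcc9* at 11.2 CPM.

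In these 42 cells, *Hey1* was read in 8 of 20 cells with a *Dll4* UMI (40.0%, 19.1-63.9) and in 2 of 22 without one (9.09%, 1.12-29.2). The cells were used as read, so a deeper cell has more chance of both, and the intervals overlapped. Endothelial and perivascular cells thus held different sets, *Dll4* and *Jag2* in the former, and *Notch3*, *Hey2* and *Heyl* in the latter, with *Jag1*, *Notch1* and *Hey1* in both. *Hey1* was at 55.8 CPM in endothelial-like and 23.5 CPM in perivascular-like cells.

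In the seminiferous cords, where Sertoli cells surround the germ cells, most members were at lower levels. Sertoli-like cells had *Jag1*, *Notch3*, *Hes1*, *Hey1* and *Heyl* lower than interstitial-like cells, by the 2-fold rule (7.88% of all features lower), and none higher (8.49%). *Notch1* (14.1 and 24.1 CPM) and *Notch2* (33.6 and 46.0 CPM) were not past it. *Hey2*, too low in both classes for a call, had 2 UMIs against 54 and was lower by a factor of 26.0 (6.85-220). Germ-like cells had 6 members lower (18.3% of all features) and none higher (11.6%), and *Hey1* at 11.0 CPM did not differ from the interstitial level beyond counting error (ratio 0.972, 0.744-1.26). *Jag2*, at 3.81 CPM in germ-like and 0.598 CPM in interstitial-like cells, was too low for a call, although its ratio was 6.37 (2.89-16.0). *Hes1* was read in 64.1% of germ-like cells as read but in 14.8% (10.6-19.8) after thinning to 5000 UMIs, since germ-like cells had the deepest barcodes.

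Peritubular myoid-like cells, the contractile layer around the cords, had *Jag1*, *Notch1*, *Notch3* and *Heyl* lower than interstitial-like cells (1.92% of all features) and none higher (1.36%). *Hes1* (89.2 and 153 CPM) was not past 2-fold and *Hey1* (11.6 and 11.3 CPM) was level. Coelomic epithelium-like cells, the surface layer of the testis, had *Notch1*, *Notch3*, *Hes1* and *Heyl* lower (3.33%) and none higher (3.75%). Their *Jag2*, at 3.17 CPM against 0.598 CPM, was also too low for a call, with a ratio of 5.3 (1.82-15.8). Immune-like cells had 5 members lower (17% of all features) and none higher (9.42%), with *Notch1* at 29.5 CPM and *Notch2* at 27.6 CPM, and no UMI of *Jag1*, *Dll4*, *Hey1* or *Hey2*.

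Each class was also set against all other kept cells. Perivascular-like cells had 6 members higher (2.48% of all features), namely *Jag1*, *Notch1*, *Notch3*, *Hey1*, *Hey2* and *Heyl*, and none lower (5.92%). Endothelial-like cells had 4 higher (6.21%) and 3 lower (12.8%), and interstitial-like cells 3 higher (*Notch3*, *Hes1* and *Heyl*, 3.52%) and none lower (6.26%). Leydig-like cells had *Jag1* higher (4.22%), 4.29-fold (3.77-4.87), and 4 members lower (9.13%). Sertoli-like cells had 4 members lower (8.49% of all features) and none higher (7.1%), and germ-like cells 6 lower (20.1%) and none higher (9.58%). Immune-like cells had 5 lower (19.9%) and none higher (8.51%), peritubular myoid-like cells 3 lower (6.14%) and none higher (2.36%), and the coelomic epithelium-like class 1 lower (5.57%) and none higher (3.16%). In all, 40 pairs of a member and a class were past 2-fold.

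Whether a target was read more often in cells with a receptor UMI was described within interstitial-like cells at 5000 UMIs per cell. *Heyl* was read in 45.7% (37.3-54.3) of cells with a *Notch1* UMI and 29.6% (27.0-32.4) of those without, and in 40.0% (34.2-46.0) and 29.0% (26.2-31.9) with and without *Notch3*. With and without *Notch2* the shares were 36.2% (30.2-42.7) and 30.3% (27.5-33.1). *Heyl* was also read more often in cells with a *Jag1* UMI (44.4%, 36.6-52.4) than without (29.5%, 26.8-32.3).

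The shares for *Hes1* lay level. It was read in 47.1%, 46.7% and 47.1% of cells with *Notch1*, *Notch2* and *Notch3* UMIs, and in 46.3%, 46.3% and 46.2% of those without. At 3000 UMIs per cell the small differences of *Hes1* changed sign, to 24.5% and 33.5% with and without *Notch1*, while those of *Heyl* kept theirs, with intervals that overlapped for each receptor. With and without *Jag1* the shares for *Heyl* were then 33.9% (25.6-42.9) and 18.9% (16.7-21.2), with intervals that did not overlap.

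Cluster 3 was lower than cluster 1 in *Heyl*, *Notch1* and *Jag1*, so the shares for *Heyl* with and without each receptor were also taken within clusters. Those with and without *Jag1* were not, so they mix any difference within clusters with that between clusters. Within cluster 1, *Heyl* was read in 47.4% (40.1-54.7) of cells with *Notch3* and 34.0% (30.3-37.9) without, and in 46.1% (36.2-56.2) and 35.8% (32.3-39.5) with and without *Notch1*. At 3000 UMIs these became 30.9% and 24.4%, and 30.6% and 25%, with overlapping intervals. Within cluster 3 the shares with and without *Notch3* were 18.8% and 17.9%, and with and without *Notch2* 20.5% and 17.6%, which turned to 2.86% and 9.36% at 3000 UMIs. With and without *Notch1* they were 33.3% (6 of 18 cells) and 17.0%, and at 3000 UMIs 33.3% (4 of 12 cells) and 7.59%. In cluster 5 the shares with and without *Notch1* were 55.0% (11 of 20 cells) and 22.7%, and at 3000 UMIs 14.3% (2 of 14 cells) and 15.9%. The differences within clusters 3 and 5 rested on few cells and did not all keep their sign at the other depth. In perivascular-like cells *Heyl* was read in 65.3% of cells with *Notch3* and 62.5% without.

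**Figure D4:**
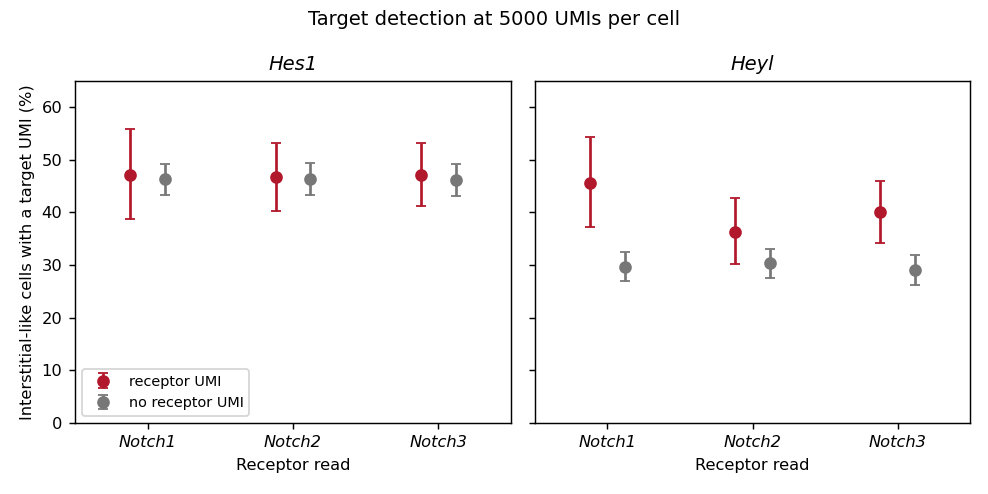
Share of 1291 interstitial-like cells with a *Hes1* UMI (left) or a *Heyl* UMI (right) at 5000 UMIs per cell, for cells with (red) and without (grey) a UMI of each receptor, with exact binomial 95% intervals. The *Hes1* pairs lie level near 46-47%, and *Heyl* is at 45.7% with and 29.6% without *Notch1*.

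Of the 40 other Notch pathway genes, 38 were seen in at least 10 kept cells. In Leydig-like against interstitial-like cells, 2 of them were higher, 3 lower and 33 neither, with a median log2 difference of -0.23. Over all features, 5.4% were higher and 7.45% lower, with a median of -0.07, so both counts lay near the share of all features. Higher were *Dll1*, another Delta-like ligand, at 7.6 CPM against 0.374 CPM (43 and 5 UMIs), and *Hes6*, a HES family member known to oppose HES1, at 60.5 CPM against 25.9 CPM (2.34-fold, 2.01-2.72). *Dll1* was at 9.59 CPM in cluster 6 and 6.02 CPM in cluster 8.

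Lower were *Dlk1*, an imprinted gene for a ligand-like protein, at 136 against 770 CPM, *Numbl*, an adaptor of the Numb family, at 10.1 against 27.8 CPM, and *Dtx1*, a Deltex ubiquitin ligase, at 2.12 against 10.1 CPM. *Dlk1* was at 270 CPM in cluster 6 and 29.5 CPM in cluster 8. *Hes6* was at 36.8 CPM in cluster 6 and 79.3 CPM in cluster 8, the order opposite to that of *Hes1*. *Dtx4* was at 64.8 CPM in cluster 6 and 6.02 CPM in cluster 8, against 51.1 CPM in interstitial-like cells.

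The machinery that cuts the receptors and carries its signal was spread over all classes. *Rbpj*, the DNA-binding partner of Notch, was at 40.7 CPM in interstitial-like, 26.9 CPM in Leydig-like, 39.0 CPM in Sertoli-like, 50.1 CPM in perivascular-like and 36.3 CPM in endothelial-like cells. The protease *Adam10* was at 43.3 CPM in interstitial-like, 68.6 CPM in Leydig-like and 119 CPM in endothelial-like cells, and lowest in germ-like cells at 8.54 CPM (6.71-10.7). The gamma-secretase subunits *Psenen* (139 and 161 CPM), *Aph1a* (64.1 and 89.3 CPM) and *Ncstn* (28.8 and 51.5 CPM) had similar or higher levels in Leydig-like than in interstitial-like cells, and none was past 2-fold. *Spen*, a co-repressor that works with RBPJ, was at 35.2 and 31.8 CPM.

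The ubiquitin ligases *Mib1*, which ligands need in sending cells, and *Itch* were at 32.0 and 55.7 CPM in interstitial-like and 26.7 and 41.0 CPM in Leydig-like cells. *Fbxw7*, which takes part in turnover of the freed receptor, was highest in germ-like cells at 90.8 CPM. *Dtx1* was highest in Sertoli-like cells at 57.9 CPM and *Dtx3* in perivascular-like cells at 87.6 CPM. Endothelial-like cells alone held a high level of the receptor *Notch4* (51.7 CPM, against at most 7.04 CPM elsewhere). The glycosyltransferase *Mfng* was also highest there, at 155 CPM, against 25.6 CPM (13.6-43.8) in immune-like cells and no UMI in interstitial-like cells. The feedback gene *Nrarp* was at 93.5 CPM in endothelial-like and 38.3 CPM in perivascular-like cells, against 1.12 CPM in interstitial-like and 7.61 CPM in Sertoli-like cells.

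For each member, the genes with the most similar pattern were found by Pearson's r of log2(CPM + 5) over the 9 classes, among 11114 features. The classes are parts of 1 library of unequal depth, so r is a description. *Dll4* was most like *Sox17* (r = 0.998), *Clec14a* and *Cldn5*, and *Jag2* most like *Cldn5* (0.984), *2900026A02Rik* and *Sox17*, patterns set by the endothelial-like class. *Notch3* was most like *Dact1* (0.992), *Ccdc141* and *Pdgfrb*. *Hey2* was most like *Abcc9* (0.957), *Ndufa4l2* and *Sept4*, and *Heyl* most like *Nrn1* (0.982), *Nrip2* and *Colec11*.

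*Hes1* was most like *Igf2r* (0.960), *Atp2b4* and *Plekhg2*, and *Hey1* most like *Ap2b1* (0.971) and *Heg1*. *Jag1* was most like *C1qtnf6* (0.938), *Ppm1e* and *Plpp2*, *Notch1* most like *Tagln2* (0.940), *Bbc3* and *Arrb1*, and *Notch2* most like *Tmem222* (0.949), *B3galnt1* and *Heatr6*. Between members, r was 0.96 for *Jag2* and *Dll4*, 0.92 for *Notch3* and *Heyl*, 0.79 for *Notch3* and *Hey2*, 0.73 for *Dll4* and *Hey1*, and 0.71 for *Notch3* and *Hes1*.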

How the data were processed

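The authors deposited raw UMI counts for each gene in each barcode. They had aligned the reads with Cell Ranger to mm10 (GRCm38) plus the sequence of YFP, and the counts are not normalized. The submitters' processing notes name versions 3.0.2 and 3.1.0, the matrix header names 3.1.0, and the methods name another version. The features and barcodes lists that the authors deposited are identifiers.

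The matrix held 5421 barcodes and 72595083 UMIs. Barcodes under 200 genes (372), doublets (204, the highest 4.04% by share of artificial neighbours) and outliers beyond 3 median absolute deviations (1036) were removed, which left 3809 cells with 54349896 UMIs. Clustering used Seurat 5.3.0 and sctransform 0.4.2 in R 4.3.3, with mitochondrial share and cell-cycle scores regressed out. It took 3000 variable genes, from which the Notch genes were dropped, 30 components and a resolution of 0.8. The remaining steps ran in Python 3.11.15 (scikit-learn 1.9.0, pandas 2.3.3, scipy 1.17.1, numpy 2.4.6) and were tested on simulated data.

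A cluster was named from marker lists where the mean log2 ratio of its markers was at least 1 and at least 3 markers were read in 25% of its cells. After the clusters were seen, those whose 10 leading genes held more markers of another list were left unnamed. The members, lists and marker sets were chosen with earlier results of these data known. Of the other Notch pathway genes, those at 50 CPM or more in a class, or past 2-fold between Leydig-like and interstitial-like cells, were named. For each member, the 3 genes with the most similar pattern were named among features of at least 200 UMIs, and for each cluster up to 5 leading genes. Some genes that these rules pick are not reported here. Other outlier limits, doublet rates, resolutions, normalizations, namings, depths and added CPM were tried as alternatives. Positions are from the GENCODE annotation of GRCm38. No test was made, and levels of cells from 1 library have no replicate error.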

Additional observations from a re-analysis of the deposited data

How the results depend on the processing

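Across the alternatives, *Notch1*, *Notch3*, *Hes1* and *Heyl* stayed lower in Leydig-like than in interstitial-like cells, with log2 differences of -3.28 to -1.81, -3.37 to -1.96, -4.07 to -1.88 and -4.01 to -2.72. The number of members lower was 4 to 6. *Jag1* lay at 0.81 to 1.47 around the limit of 1, so 0 members were higher without the outlier filter, with log-normalized counts before clustering, after thinning to 5000 UMIs, with Leydig-like cluster 6 alone, and without the globin-led interstitial-like cluster (settings with 1 Leydig-like cluster alone or without that cluster were chosen after seeing the data). Summed targets were 8.43 times higher in interstitial-like than in Leydig-like cells, and 12.3 at 5 median absolute deviations, 16 with no doublets removed, 20.5 at resolution 1.2, 10.2 with log-normalized counts, 10.9 with each cell classed by itself, 4.8 with cluster 6 alone and 21.1 with cluster 8 alone. Summed receptors were 5.87 times higher, and 8.28 with no doublets removed, 10.8 at resolution 1.2, 4.23 after thinning, 3.59 with cluster 6 alone and 11.8 with cluster 8 alone. Summed ligands were 2.16 times higher in Leydig-like cells, and 3.1 with the Notch genes allowed in clustering, 2.81 with each cell classed by itself and 1.83 with cluster 6 alone. The Leydig-like class held 310 cells, but 225 at resolution 1.2, 238 with no doublets removed and 407 without the outlier filter. The interstitial-like class held 1362 cells, but 514 with the Notch genes allowed in clustering, 974 with log-normalized counts and 1448 with clusters named by the marker ratio alone. The perivascular-like class held 106 cells, but 55 with log-normalized counts and 228 with each cell classed by itself. Other causes were not tested. At 3000 UMIs per cell, the differences in *Hes1* detection with and without *Notch1*, *Notch2* and *Notch3* turned from 0.8, 0.4 and 0.9 points to -9, -4 and -2.1 points. Pairs of a member and a class past 2-fold numbered 36 to 50 (40 as reported). Between 7 and 8 members were highest in endothelial-like or perivascular-like cells, a count without the share of all features beside it. No paired analysis was possible because there was 1 library. Among the ranked classes, depth limits the 33 immune-like and 42 endothelial-like cells most, where 3 counts correspond to 5.9 and 4.19 CPM.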

Other observations

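The barcodes left out of the classes also held Notch transcripts. *Hes1* was at 66.4 CPM (60.2-73.1) and *Notch1* at 22.2 CPM (18.7-26.2) in the 204 barcodes removed as doublets, and at 27.6 CPM (24.5-30.9) and 7.7 CPM (6.11-9.56) in the 1036 outlier cells. In the 372 barcodes of fewer than 200 genes, 3 *Hes1* UMIs and 1 *Notch1* UMI were read among 1409901 UMIs. Rete testis-like cells, with 17 cells too few to rank, had *Hes1* at 109 CPM (70.1-163), *Notch1* at 31.9 CPM (12.8-65.7) and *Notch2* at 31.9 CPM. The 61 cells of the shallow unnamed cluster 11 held 19 *Hes1* UMIs and 1 *Heyl* UMI.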
